A study of Mus musculus with 4 samples.

Results

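The genes described are 10 genes of MHC class I antigen presentation, taken by symbol from the 24346 gene symbols listed in each library of cultured mouse hair follicle epithelial stem cells (HFSCs). They are the classical class I heavy chains H2-K1 and H2-D1, the light chain B2m, the peptide transporter genes Tap1 and Tap2, tapasin (Tapbp), the immunoproteasome subunits Psmb8, Psmb9 and Psmb10, and the class I transactivator Nlrc5. The genes were selected on their FPKM difference between the passage groups, which was known from earlier results of these data, so that difference is given as a description, with no test.

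Cells positive for CD49f and CD34 had been sorted from the dorsal skin of 4-week-old C3H/HeN mice and serially passaged in M-CnT, a serum-free medium, without feeder cells. Polyadenylated RNA was sequenced after 10 passages (10p-HFSCs, 2 libraries) and after 48 passages (48p-HFSCs, 2 libraries). Strain, sort and medium were shared by both groups, and only the number of passages differed in the labels. The labels do not say whether the libraries of a group came from separate cultures, so p-values measure only the spread between these libraries.

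MHC class I molecules carry peptides of intracellular proteins to the cell surface, where cytotoxic T cells read them. Proteasomes cut the peptides, the transporter formed by Tap1 and Tap2 moves them into the endoplasmic reticulum, and tapasin with its chaperone partners holds the heavy chain and B2m ready until a peptide binds. Many of these genes respond to interferons, Nlrc5 activates the class I promoters, and the lower part of the growing hair follicle is known for low class I levels.

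Levels were deposited as FPKM, in which fragment numbers are divided by transcript length and by the mapped total of the library, a scale on which genes can be compared per length. Summed FPKM ran from 581516 to 719012 in the 10p libraries and from 666018 to 1414953 in the 48p libraries. Read totals are unknown, but the steps between low values put the depth of replicate 2 of 48p-HFSCs at 46.7% of that of replicate 1 of 10p-HFSCs, the lowest of the 4 libraries. Differences were taken on the log2(FPKM + 1) scale as 48p-HFSCs minus 10p-HFSCs, which understates the change of low genes. Genes that reached an FPKM of 1 in 2 or more libraries were tested, 11018 in all, of which 19.9% were called (limma, adjusted p under 0.05 and a log2 difference of at least 1 in size), 10.8% as higher at 48 passages and 9.15% as lower. After rescaling each library to TPM, which sums to the same total in every library, the median difference of all genes moved from -0.03 to -0.56, and the share of calls that were higher moved from 54.1% to 43.4%. The keratinocyte genes Krt5 and Krt14 had FPKM of at least 1217 in every library, whereas the stem cell markers Cd34 (0.0925 to 0.234) and Lhx2 (at most 0.0241) were near 0 in all 4 libraries. Of the other follicle stem cell markers, Lgr5 and Nfatc1 were at most 0.0303, and Krt15 was at 136.1 and 82.6 against 424.8 and 18.8. Sox9 (45.6 and 44.2 against 20.2 and 8.31) was called lower at 48 passages. Tcf3 (36.2 and 40.8 against 17.8 and 19.2) was called lower as well. It was taken by symbol, at chr10:80409514-80433647, and is not read here as a stem cell marker.

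The 10 genes did not move as a block. In 48p-HFSCs the heavy chains were far higher, B2m and Tapbp were somewhat higher on the FPKM scale, Tap1 and Tap2 were lower, Psmb9 and Psmb10 differed little, and Psmb8 and Nlrc5 were near 0 in every library. The filter on low values was passed by 8 of the 10 genes, and H2-K1 passed it only through its level in 48p-HFSCs. Among these 8, 2 met the limits for a higher call and 1 those for a lower call, against 10.8% and 9.15% (19.9% together) of all genes tested. Both 48p libraries lay above both 10p libraries for 5 of the 8 genes and below them for 3, against 31.7% and 34.3% of all genes. The median difference of the 8 was 0.66, beside -0.03 over all genes tested. Nothing about the passage groups is inferred from these counts, because the same contrast was known when the genes were listed.

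**Figure D1:**
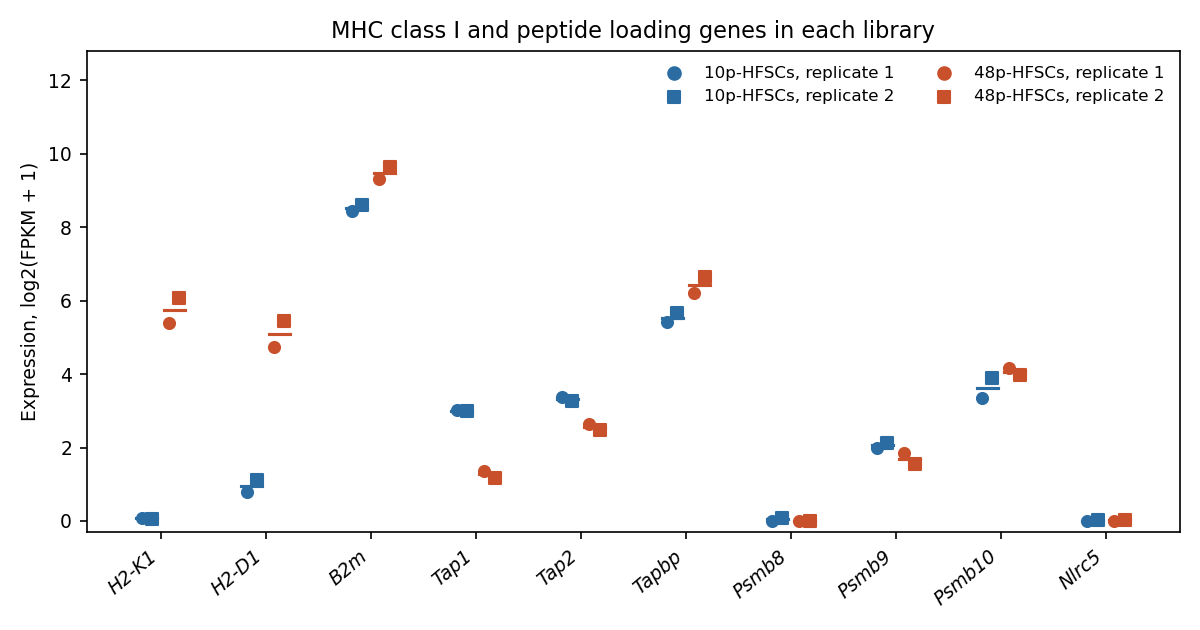
Expression of the 10 genes, as log2(FPKM + 1) on the vertical axis, in each of the 4 libraries (circles, replicate 1; squares, replicate 2; blue, 10p-HFSCs; red, 48p-HFSCs), with a line at the mean of each group. H2-K1 and H2-D1 are separated most between the groups, Tap1 and Tap2 lie lower in 48p-HFSCs, and Psmb8 and Nlrc5 lie at the bottom of the scale in every library.

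H2-K1 encodes the K heavy chain, one of the polymorphic chains that present peptides to CD8 T cells. In GENCODE release M21 its gene lies at chr17:33996017-34000347 on the minus strand of GRCm38, the assembly also called mm10. Its FPKM was 0.0677 and 0.0473 in the 10p libraries, replicate 1 first here and throughout, and 40.9 and 66.3 in the 48p libraries. The 10p libraries were thus close to 0, and no library of one group overlapped the other. The log2 difference was 5.65 (SE 0.33), and 8.38 with a pseudocount of 0.1 in place of 1. Corrected for the depth step between the 10p libraries, their values stood at a ratio of 2.0, as would 2 reads against 1, so the 10p level rests on very few reads and no fold is given.

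H2-D1, the D heavy chain, lies at the other end of the MHC region at chr17:35262730-35267499 on the plus strand. It had an FPKM of 0.725 and 1.16 in the 10p libraries and of 25.5 and 42.3 in the 48p libraries. The groups did not overlap, the log2 difference was 4.13 (SE 0.34), and the mean was 36.0 times higher in 48p-HFSCs, a ratio that rests on low 10p values. Within a library H2-K1 stood at 9.34% and 4.09% of H2-D1 in the 10p libraries, and at 160.6% and 156.8% in the 48p libraries, so the order of these chains was opposite in the groups. In the 10p libraries the order rests on low values of both chains, with very few reads for H2-K1. In 48p-HFSCs both had a higher FPKM in replicate 2 than in replicate 1, by 1.62 times for H2-K1 and 1.66 times for H2-D1, while the median gene had a ratio of 1.01. On the TPM scale the order was opposite, at 61.5 and 46.9 for H2-K1 and 38.3 and 29.9 for H2-D1.

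The heavy chains also share motifs upstream of their RefSeq starts. The stretches shown are those in which motifs of the class I promoter could be found by a search of the RefSeq promoter windows (GRCm38.p6), which reach from upstream of each gene start to just past it and were present for 8 of the 10 genes. The first pair covers an NF-kB site, the capital bases that open both lines, and the reverse strand form of the core of an interferon response element, AANNGAAA, also in capitals, at chr17:34000430-34000458 on the minus strand for H2-K1 and chr17:35262923-35262951 on the plus strand for H2-D1.
H2-K1: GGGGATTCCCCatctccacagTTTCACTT
H2-D1: GGGGATTCCCCatctcctcagTTTCACTT
These were identical at 28 of 29 bases, including the motifs by which the stretches were chosen. Searched on both strands, the NF-kB letters occurred in 10 of 32851 promoter windows, or 0.0304%, and AANNGAAA in 23.9%. The second set holds TGACG, a core that CREB and ATF proteins bind, and ATTGG, the reverse strand form of the CCAAT box, both in capitals, at the same spacing in H2-K1 (chr17:34000359-34000388, minus strand), H2-D1 (chr17:35262993-35263022, plus strand) and B2m (chr2:122147609-122147638, plus strand).
H2-K1: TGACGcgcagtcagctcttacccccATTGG
H2-D1: TGACGcgctggcaggtctcactatcATTGG
B2m: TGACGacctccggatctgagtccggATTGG
Over these 30 bases H2-K1 and H2-D1 were identical at 23, H2-K1 and B2m at 13, and H2-D1 and B2m at 12, with the motifs included. The H2-D1 stretches lie inside the annotated extent of the gene, which begins upstream of its RefSeq start, and those of H2-K1 and B2m lie upstream of the gene. The spacing was noticed in these sequences and then counted, and it was found in 31 of all windows, or 0.0944%. Those windows belonged to 27 genes, of which 18 were tested, with 4 called higher and 3 lower, beside 10.8% and 9.15% of all genes, and H2-K1 and H2-D1, selected on this contrast, were among the 4. A match of letters describes the sequence and does not show that a factor was bound.

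B2m, the light chain shared by all class I molecules, lies at chr2:122147686-122153083, outside the MHC region. Its FPKM was 347.6 and 385.4 in the 10p libraries and 633.9 and 792.7 in the 48p libraries, the highest of the 10 genes in every library. The mean was 366.5 ± 26.7 (SD, n = 2) in the 10p libraries and 713.3 ± 112.3 (SD, n = 2) in the 48p libraries, a ratio of 1.95, with a log2 difference of 0.95 (SE 0.42). The FPKM groups did not overlap, but on the TPM scale they did, with 597.8 and 536.1 in the 10p libraries and 951.7 and 560.2 in the 48p libraries. Its promoter window also held the interferon response core on the plus strand, in capitals, at chr2:122147542-122147571.
B2m: gaacatgaAACTGAAAatgggaaagtccct
The summed FPKM of H2-K1 and H2-D1 was 0.228% and 0.313% of that of B2m in the 10p libraries, and 10.5% and 13.7% in the 48p libraries. Light chain transcript was thus abundant in both groups, whereas that of H2-K1 and H2-D1 was far higher in 48p-HFSCs. Other class I heavy chain genes are not in this sum, and H2-T23 had an FPKM of 61.6 and 59.5 in the 10p libraries. RNA of bulk cultures cannot tell more cells that express a gene from more RNA per cell.

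**Figure D2:**
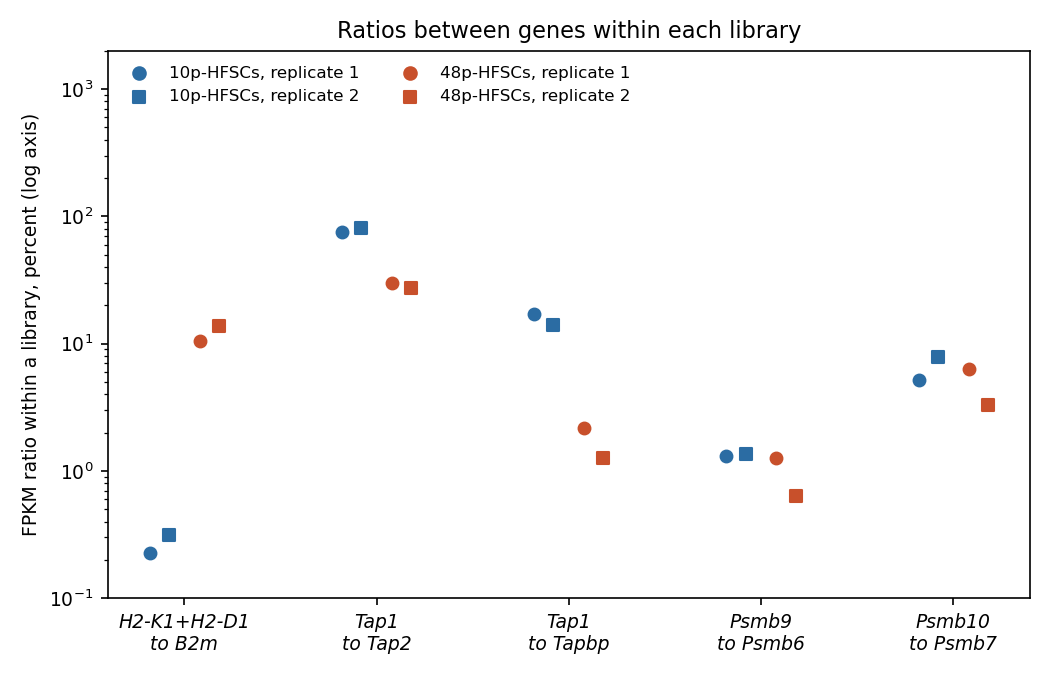
FPKM of a gene or pair of genes as a percentage of the FPKM of another gene in the same library, on a log axis, with 1 symbol per library (circles, replicate 1; squares, replicate 2; blue, 10p-HFSCs; red, 48p-HFSCs). The sum of H2-K1 and H2-D1 to B2m went from 0.228% and 0.313% in 10p-HFSCs to 10.5% and 13.7% in 48p-HFSCs, whereas Tap1 to Tapbp was lower in 48p-HFSCs.

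The transporter genes lay on the other side. Tap1, which forms the transporter with Tap2, is at chr17:34187553-34197225, and its FPKM was 7.09 and 6.99 in the 10p libraries and 1.57 and 1.26 in the 48p libraries. All values of 48p-HFSCs were below those of 10p-HFSCs, with a log2 difference of -1.74 (SE 0.26) and a mean 4.99 times higher in 10p-HFSCs. Tap2, at chr17:34203527-34216321, had an FPKM of 9.41 and 8.69 in the 10p libraries and of 5.21 and 4.58 in the 48p libraries. It differed in the same direction but by less, with a log2 difference of -0.77 (SE 0.26) and no overlap between groups. The ratio of Tap1 to Tap2 was 75.4% and 80.5% in the 10p libraries and 30.1% and 27.5% in the 48p libraries, so the genes for the paired chains of the transporter were closer in level at 10 passages.

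Tapbp, which encodes tapasin, the bridge between the transporter and the empty class I molecule, was on the side of the heavy chains on the FPKM scale. The gene lies at chr17:33915899-33929292, and its FPKM was 41.5 and 49.8 in the 10p libraries and 72.6 and 99.7 in the 48p libraries, with a log2 difference of 0.89 (SE 0.29). On the TPM scale the groups overlapped, at 71.3 and 69.2 against 108.9 and 70.5. Tap1 stood at 17.1% and 14.0% of Tapbp in the 10p libraries and at 2.16% and 1.26% in the 48p libraries. Tap2 stood at 22.7% and 17.5% of Tapbp in the 10p libraries, and at 7.18% and 4.59% in the 48p libraries. Within a library Tap1 and Tap2 were thus lower relative to Tapbp at 48 passages, which gives a relative difference and not the direction of Tapbp itself.

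Immunoproteasome subunits replace the catalytic subunits Psmb5, Psmb6 and Psmb7 of the standard proteasome and change which peptides are cut. Psmb8, the counterpart of Psmb5, at chr17:34197721-34201454, was listed at 0 in 3 libraries and at 0.0669 in replicate 2 of 10p-HFSCs. Psmb9, the counterpart of Psmb6, at chr17:34181987-34187764, had an FPKM of 2.996 and 3.39 in the 10p libraries and of 2.64 and 1.91 in the 48p libraries, with a log2 difference of -0.37 (SE 0.27). It stood at between 0.631% and 1.37% of Psmb6 in all libraries, so in none did the inducible subunit come near its standard counterpart. Psmb10, the counterpart of Psmb7, at chr8:105935735-105938444, had an FPKM of 9.25 and 13.9 in the 10p libraries and of 16.9 and 14.6 in the 48p libraries. Its log2 difference of 0.44 (SE 0.30) turned to -0.10 on the TPM scale, where its groups overlapped. Psmb10 stood at 5.17% and 7.80% of Psmb7 in the 10p libraries and at 6.27% and 3.28% in the 48p libraries.

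Tap1 and Psmb9 are transcribed away from each other, and the sequence between their RefSeq starts, at positions 34187556 and 34187330 of chromosome 17, is 225 bases long. The annotated transcripts of these genes overlap by 212 bases on opposite strands, and the strand setting used for the FPKM values is not given in the sources used here. The log2 difference was -1.74 for Tap1 and -0.37 for Psmb9. The stretch shown lies between the starts, upstream of Tap1 and inside the annotated extent of Psmb9, at chr17:34187458-34187487 on the plus strand, and carries a TGACG core in capitals, a motif found in 20.8% of all windows.
Tap1: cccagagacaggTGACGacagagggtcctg
No NF-kB letters or interferon response core were found in the windows of Tap1 or Psmb9, and none of the motifs searched were found in those of Psmb8 and Psmb10. The NF-kB letters were an exact sequence found in 0.0304% of all windows. Other forms of the site were not searched, so their absence is not shown. CCAAT alone occurred in 37.4% of all windows.

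Nlrc5, the transactivator of class I genes, lies at chr8:94434356-94527272 and was at 0 and 0.0101 in the 10p libraries and at 0.00875 and 0.0155 in the 48p libraries. It was therefore not detectable above a trace at this depth in either group, also in the libraries with high H2-K1 and H2-D1. Ciita, the related activator of class II genes, had an FPKM of at most 0.0788.

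Ordered by level in 10p-HFSCs, B2m was followed by Tapbp, then by Psmb10 and Tap2, whose libraries overlapped, and by Tap1, Psmb9 and H2-D1. H2-K1, Psmb8 and Nlrc5 came last in 10p-HFSCs, each overlapping the next. In 48p-HFSCs B2m and Tapbp were again followed by a pair that overlapped, now H2-K1 and H2-D1, and then by Psmb10, Tap2, Psmb9, Tap1, Nlrc5 and Psmb8. Neighbours not named as overlapping were separated in both libraries of the group, although with 2 libraries this is a weak criterion, and an exact permutation test of 2 against 2 cannot go below a two-sided p of 0.333.

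Rescaling to TPM shifts all genes of a library alike, so differences relative to the median gene change with it only through the pseudocount. On the FPKM and TPM scales respectively, the difference after subtracting the median of all genes was 5.69 and 6.20 for H2-K1, 4.17 and 4.40 for H2-D1, and 0.99 and 0.92 for B2m. It was 0.92 and 0.87 for Tapbp, -1.71 and -1.68 for Tap1, -0.74 and -0.74 for Tap2, -0.33 and -0.24 for Psmb9, and 0.47 and 0.46 for Psmb10. Unsubtracted, the TPM values left 2 of the 8 genes with 48p libraries above all 10p libraries (H2-K1 and H2-D1), 3 with them below (Tap1, Tap2 and Psmb9) and 3 overlapping, beside 15.7% and 43.7% of all genes above and below.

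**Figure D3:**
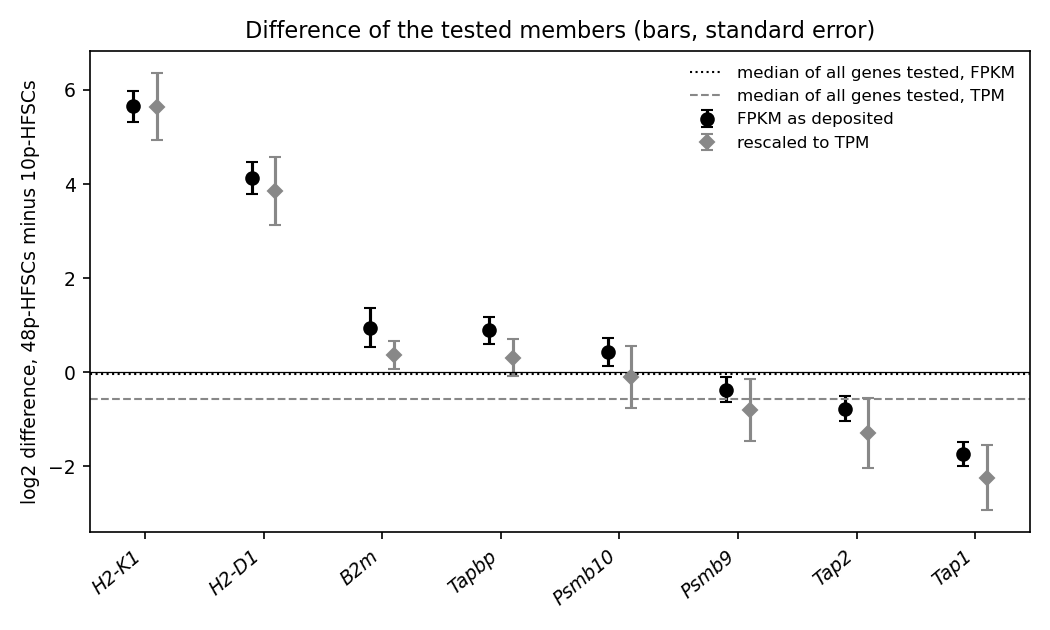
Difference between the group means on the log2 scale (48p-HFSCs minus 10p-HFSCs) of the 8 genes that passed the filter, with standard errors, for FPKM as deposited (black) and rescaled to TPM (gray); lines mark the medians of all genes tested. H2-K1 and H2-D1 lie above 3 on both scales, Tap1 and Tap2 below 0 on both, and Psmb10 changes sign.

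The other genes of the pathway were taken from 7 lists, with p-values from limma adjusted over all 11018 genes. Of their 107 genes 72 were tested, 11 were called higher, 3 lower and 58 were not called, with a median difference of 0.10, beside 10.8% higher and 9.15% lower (19.9% together) and a median of -0.03 over all genes, so calls were about as frequent as in the whole table. A gene that was not called is not thereby shown to be unchanged. No gene of the lists was called higher without replicate 1 of 10p-HFSCs, without replicate 2 of 10p-HFSCs, or without the filter on low values, and on the TPM scale 6 of the 14 calls remained, those of Psme1, Nfyc, Ifnar2, Il10rb, Ifnlr1 and H2-T10. All 14 kept their direction in each alternative run.

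Of the proteasome genes 2 were called. Psme1 and Psme2, which form the activator ring that opens the proteasome, rose in 48p-HFSCs, as 2 of the 9 activator and assembly genes, while the other activators Psme3 (log2 difference 0.21, adjusted p = 0.57) and Psme4 (0.03, adjusted p = 0.94) were not called. The FPKM of Psme1 was 40.5 and 51.6 in the 10p libraries and 136.7 and 185.6 in the 48p libraries, with a log2 difference of 1.78 (SE 0.30, adjusted p = 0.013). Psme2 had 75.1 and 97.2 in the 10p libraries and 210.9 and 284.1 in the 48p libraries, a log2 difference of 1.51 (adjusted p = 0.027), which was 0.93 (adjusted p = 0.083) on the TPM scale. In the annotation 44.2% of the read-length windows of the longest Psme2 transcript occur also in Psme2b, so the level of Psme2 is uncertain. None of the 14 standard core subunits was called by limma, with 1 at an unadjusted p under 0.05, but 3 were called lower on the TPM scale and 2 higher without replicate 1 of 48p-HFSCs. The log2 difference was 0.47 (adjusted p = 0.35) for Psmb5, 0.08 (adjusted p = 0.89) for Psmb6 and 0.95 (adjusted p = 0.13) for Psmb7.

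The chaperones of the loading complex were not called either (0 of 8 by limma, with 1 at an unadjusted p under 0.05), although 2 were called higher without replicate 1 of 48p-HFSCs. Calreticulin (Calr), which holds the heavy chain by its sugar, had a log2 difference of 0.77 (adjusted p = 0.33). That of calnexin (Canx), which binds the newly made heavy chain, was 0.02 (adjusted p = 0.97), and that of Pdia3, the partner of tapasin, was 0.08 (adjusted p = 0.89). Tapbpl, a second peptide editor, had a difference of -0.09 (adjusted p = 0.84). Of the 8 peptidases, Npepps rose by 1.02 (adjusted p = 0.041) and Tpp2 fell by 1.04 (adjusted p = 0.049), both enzymes of the cytosol. The call of Npepps was lost on the TPM scale (adjusted p = 0.54), and that of Tpp2 was kept in only 1 of 11 alternatives. Erap1, which trims peptides in the endoplasmic reticulum, had a difference of -0.47 (adjusted p = 0.41).

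Of the 13 tested genes for factors at class I promoters, 1 rose and 1 fell. Irf1, an interferon-responsive activator of these promoters, had an FPKM of 32.9 and 29.0 in the 10p libraries and of 80.7 and 80.2 in the 48p libraries, a log2 difference of 1.35 (adjusted p = 0.016), which was 0.78 (adjusted p = 0.27) on the TPM scale. Nfyc, a subunit of the factor that binds CCAAT, fell by 1.37 (adjusted p = 0.019), from a mean FPKM of 33.8 to 12.3. Rfx5, a subunit of the complex through which Nlrc5 works, had a difference of -0.15 (adjusted p = 0.82).

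Interferon receptors and signaling genes had 5 of 13 tested called higher and 1 lower, beside 10.8% and 9.15% of all genes, and 2 higher and 1 lower on the TPM scale. Ifnar2, a chain of the type I interferon receptor, was listed at 0 in both 10p libraries and had an FPKM of 17.5 and 27.7 in 48p-HFSCs (log2 difference 4.53, adjusted p = 0.00099). Il10rb, a chain of the type III receptor, was also listed at 0 in the 10p libraries, with 10.5 and 7.88 in the 48p libraries (log2 difference 3.34, adjusted p = 0.0012). Ifnar2 (chr16:91372783-91405589) and Il10rb (chr16:91406164-91425834) lie close together on the plus strand. Whether their reads were assigned independently was not tested. Ifnlr1, the other chain of the type III receptor, fell by 2.06 (adjusted p = 0.0031), from a mean FPKM of 3.37 to 0.0507. Ifnar2 and Il10rb passed the filter on low values only through 48p-HFSCs, and Ifnlr1 only through 10p-HFSCs. The calls of these genes are therefore given as a description. Irf9 and Stat2, which act together in interferon signaling, rose by 2.48 (adjusted p = 0.032) and 1.49 (adjusted p = 0.024), and on the TPM scale neither was called (adjusted p = 0.14 and 0.40). The interferon genes Ifnb1, Ifnk, Ifng and Ifnl2 were listed at 0 in every library. Ifne had an FPKM of at most 0.148, and Ifnl3 was above 0 only in replicate 2 of 48p-HFSCs, at 0.276.

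Of 34 class I-like genes 7 passed the filter and were tested, and 2 were called. H2-T9 rose by 1.95 (adjusted p = 0.013, on the TPM scale 0.12) and H2-T10 by 1.57 (adjusted p = 0.0082), the latter from a mean FPKM of 0.203 to 2.58. H2-T10 passed the filter on low values only through 48p-HFSCs, so its call is given as a description. H2-T23, which presents leader peptides of class I chains, had FPKM of 61.6 and 59.5 in the 10p libraries and 54.3 and 55.6 in the 48p libraries, and was not called (log2 difference -0.14, adjusted p = 0.71). It was the class I heavy chain gene with the highest FPKM in 10p-HFSCs. Class I genes are similar in sequence. In GENCODE release M21, read-length windows of each gene's longest transcript were searched in the transcripts of other genes. Exact matches were 0 of 1774 for H2-K1, 4.60% for H2-D1, 5.81% for H2-T10 and 3.82% for H2-T23. H2-T9 was not found in that release and was not searched. For H2-D1, 45 of the windows occur in H2-T23, and whether H2-T23 reads entered the H2-D1 values was not tested. Of the windows of the longest H2-Q10 transcript, 36 occur in H2-K1, so other annotated H2-K1 transcripts do share sequence. C3H/HeN mice carry another MHC haplotype than the reference genome, and its effect on the FPKM of H2-K1 and H2-D1 was not tested.

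**Figure D4:**
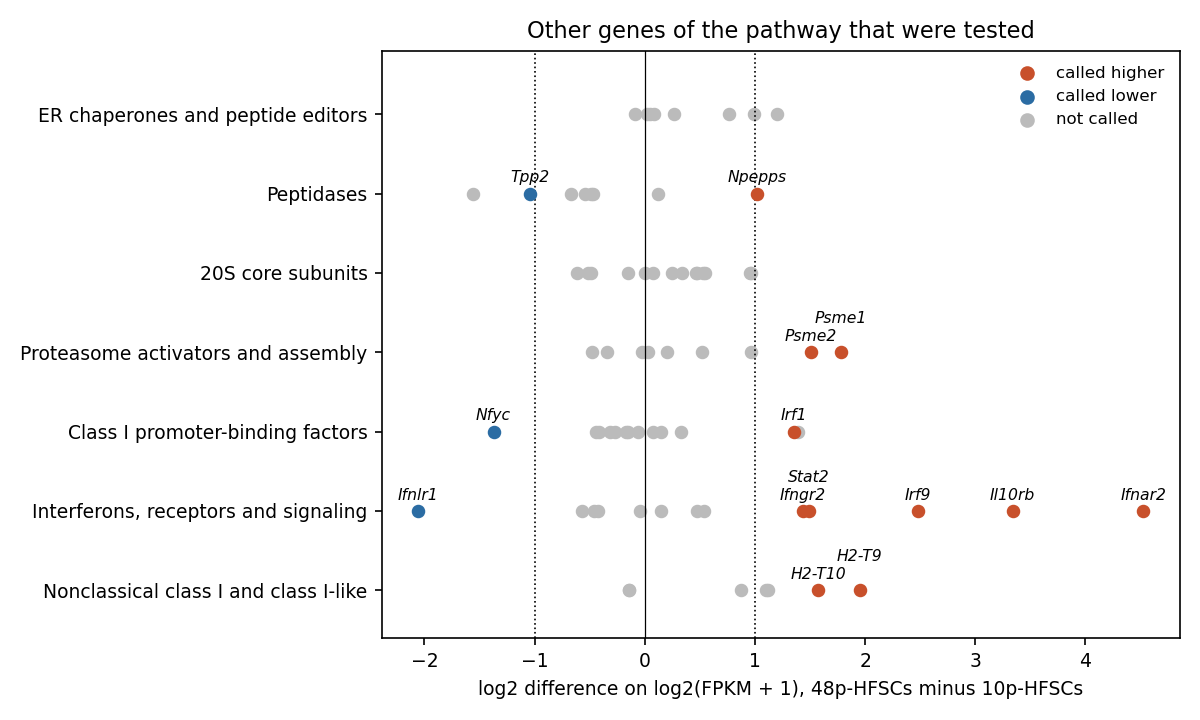
Log2 difference on the log2(FPKM + 1) scale (48p-HFSCs minus 10p-HFSCs, horizontal axis) of each of the 72 tested genes of the 7 pathway lists (rows), with red for called higher, blue for called lower and gray for not called; dotted lines mark a difference of 1 in either direction. No gene of the chaperone or core subunit lists is called on this scale, and the interferon list holds 5 higher calls and 1 lower.

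Among 10 leukocyte markers 3 were tested and 2 were called higher at 48 passages, along with the heavy chains. Their summed FPKM was 2.22 and 2.41 in the 10p libraries and 68.2 and 106.5 in the 48p libraries, nearly all of it Cd74, the invariant chain of class II, at 61.2 and 102.2. Ptprc, which marks nearly all leukocytes, was at most 0.0711, and Cd3e and Tyrobp were at 0 in every library. The Langerhans cell markers Cd207, Itgax, H2-Ab1 and Flt3 were at 0 throughout, and the other one listed, Zbtb46, was at most 0.547. Lyz2, a lysozyme of myeloid cells and the other marker called, had an FPKM of at most 3.04. Cd74 and Lyz2 passed the filter on low values only through 48p-HFSCs. Csf1r, tested and not called, had 1.28 and 1.13 in the 10p libraries and 3.39 and 1.63 in the 48p libraries. Of the fibroblast markers Col1a2 was called lower, from 67.6 and 59.3 to 0 in both 48p libraries, while Dcn and Lum were at 0 in all libraries. Of 6 melanocyte markers only Tyr was tested (0.0945 and 0.286 against 1.33 and 9.48), and it was not called. Of 5 endothelial markers only Pecam1 was tested (2.38 and 2.25 against 1.01 and 0.172), and it was not called. Whether other cells had a part in the levels of the 10 genes was not tested.

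On chromosome 17, 7 of the 10 genes lie in the MHC region or next to it, and so the other genes between Tapbp and H2-D1 were described as well. Of 98 such genes in the files 50 were tested, and 6.0% were called in each direction, beside 10.8% and 9.15% of all genes, with a median of 0.06. Ly6g6c (3.10, adjusted p = 0.0017), Hspa1a (1.28, adjusted p = 0.014) and Gpsm3 (1.07, adjusted p = 0.048) rose. H2-Ke6 (-2.33, adjusted p = 0.0036), Col11a2 (-1.92, adjusted p = 0.0080) and the class II peptide editor gene H2-DMa (-1.24, adjusted p = 0.031) fell. Ly6g6c, Hspa1a and Gpsm3 passed the filter on low values only through 48p-HFSCs, and Col11a2 only through 10p-HFSCs. H2-K1 and H2-D1 stood above the neighbours, and Tap1 was lower in 48p-HFSCs within the same region. These genes were selected on this contrast, so nothing is inferred from their place among the neighbours.

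**Figure D5:**
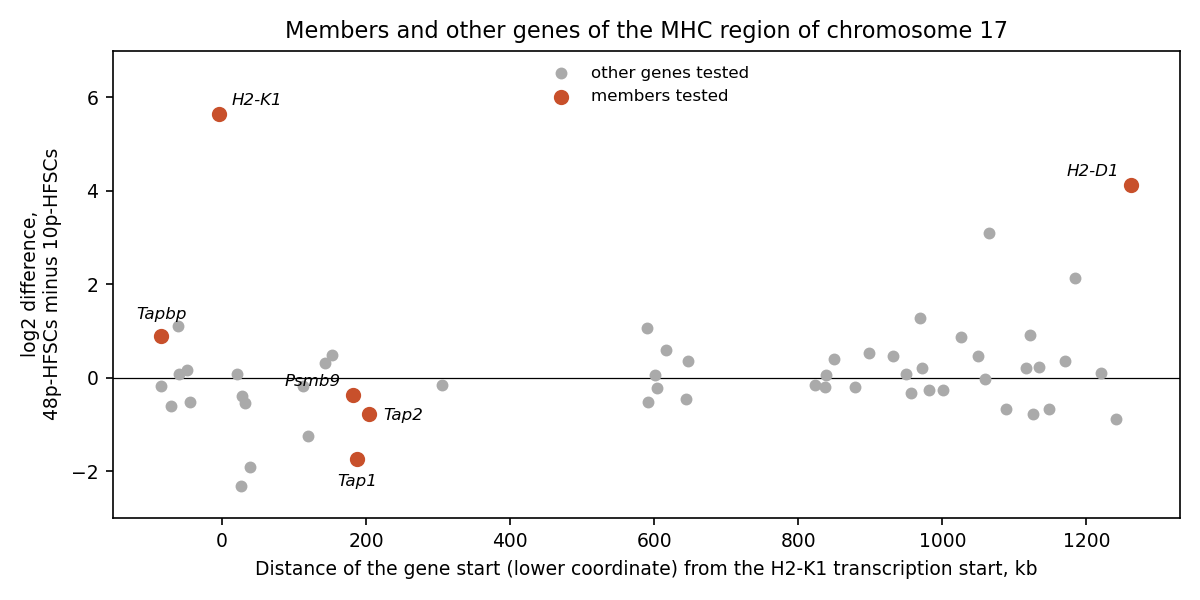
Log2 difference (48p-HFSCs minus 10p-HFSCs, vertical axis) of the tested genes of the MHC region of chromosome 17, against the distance of each gene's lower coordinate from the H2-K1 transcription start in kb. H2-K1 and H2-D1 (red) have differences of 5.65 and 4.13, while the genes that are not among the 10 (gray) have a median of 0.06. The red genes were selected on this contrast.

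The 5 genes whose pattern over the 4 libraries was nearest to the mean of the 8 tested genes, by Euclidean distance between centered log2(FPKM + 1) values, were Ccdc106 (distance 0.02), Wnt7b (0.06), Rtn4 (0.06), Nadk (0.08) and Hadh (0.09). The mean pattern is that of a moderately higher level in 48p-HFSCs and averages over the heavy chains and the Tap genes, which lie on opposite sides.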

How the data were processed

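RNA had been extracted with TRIzol, prepared with a stranded mRNA kit and read single-end. The authors mapped reads to mm10 and deposited an FPKM value per gene symbol and library. The submitters' processing notes list TopHat2 2.1.1, Bowtie2 2.2.8, SAMtools 0.1.18 and Cuffdiff 2.2.1, and the study's methods give other versions of Bowtie2 and SAMtools. The annotation and the handling of reads with several positions are not given in the sources used here. FPKM are not counts, so no count test was run, and no counting interval can be given.

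Groups followed the labels. Values were taken as log2(FPKM + 1), the 11018 genes reaching an FPKM of 1 in 2 or more libraries were tested between groups by limma 3.58.1 (R 4.3.3, eBayes with a variance trend), and Benjamini-Hochberg adjustment ran over all of them. A call needed an adjusted p under 0.05 and a log2 difference of at least 1 in size. The fit was tested on simulated data, in which most changed genes were not called. The simulated data held far fewer changed genes than were called here, so they do not give the sensitivity of the reported fit. Python 3.11.15 and pandas 2.3.3 served for the rest, and positions came from GENCODE release M21 and promoter sequences from RefSeq. Named genes were the 10 genes, up to 4 called genes per list and direction, a set of 14 fixed partner genes (1 of them is not reported here), the 5 nearest patterns, and up to 4 called neighbours per direction. Cd74, Lyz2, H2-T23, Psme3, Psme4 and the interferon genes were named after their values were seen, and so were the marker genes printed. The 10 genes and all lists were chosen with earlier results of these data known.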

Additional observations from a re-analysis of the deposited data

How the results depend on the processing

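Over 11 alternatives the log2 difference was 5.31 to 8.38 for H2-K1, 3.78 to 5.02 for H2-D1 and -2.25 to -1.65 for Tap1, as a description. H2-D1 and Tap1 no longer met the limits of a call without the filter on low values and without either 10p library, and Tapbp met them without replicate 1 of 48p-HFSCs. Psmb10 alone among the 8 genes changed sign, to -0.10 on the TPM scale. The median difference of the 8 genes, 0.66, was 0.11 on the TPM scale and 0.46 to 0.86 with a library left out. Over all genes, 1189 were called higher and 1008 lower. Without the filter on low values 116 and 114 were called, and none of the listed pathway genes in either direction (0 and 0, against 11 and 3). On the TPM scale 623 genes were called higher and 812 lower, and 4 and 5 pathway genes. Leaving out a library gave 35 to 1936 genes higher and 140 to 1875 lower, and 0 to 17 pathway genes higher and 0 to 3 lower, the lowest counts without a 10p library. In the reported fit 4118 genes had an unadjusted p under 0.05. The replicate number as a block, for which the labels give no pairing beyond the number, called 1613 genes higher and 1497 lower, and 13 and 4 pathway genes. Same-numbered libraries had deviations correlated at 0.408 with only 2 pairs, so the block is a check and no paired design. The cause of these shifts was not tested. Depth limits H2-K1 in 10p-HFSCs, Psmb8 and Nlrc5, whose values rest on few reads.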
